A study of Mus musculus with 16 samples.

Results

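The Ms4a genes encode small membrane proteins of the membrane-spanning 4-domain family. A list of 7, most of them known from myeloid cells, was followed by symbol (Ms4a4a, Ms4a4b, Ms4a4c, Ms4a6b, Ms4a6c, Ms4a6d and Ms4a7). Of these 7, 6 had a row among the 24001 gene rows of the table, and Ms4a4a was not analysed here. The genes were chosen by symbol, with their FPKM across the 8 groups already known, so the folds and adjusted p-values below set a difference against the spread between libraries and are not independent evidence for it.

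RNA-seq was done on dendritic cells grown from bone marrow of the lupus-prone inbred strain NZM2410, to compare forms of estrogen receptor α (ERα, gene Esr1). Marrow was kept for 7 days with GM-CSF at 20 and IL-4 at 10 ng/ml, and the series' design text names cells high in CD11c. Cells then had 24 h of either vehicle or agonists, which were loxoribine for TLR7 (given as 200 μmol/ml, a unit that was not checked) and CpG DNA for TLR9 at 1 μg/ml. The 16 libraries formed 8 groups of 2. WT carried the intact receptor and had no surgery. KO, also without surgery, carried ERα short, a receptor lacking the AF-1 function. ERKO OVX carried ERα short and Ex3a OVX no ERα, and the mice of both were ovariectomized at 4 to 8 weeks of age and given a 0.25 mg, 90-day estradiol pellet. All arms share the NZM2410 background and the culture with GM-CSF and IL-4. No intact-receptor arm was ovariectomized, so surgery was compared only within ERα short. Groups follow the source labels. The genotype labels go against them in the vehicle libraries of KO and ERKO OVX, listing the null allele, and in the vehicle and agonist libraries of Ex3a OVX, listing ERα short.

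Values are FPKM, a gene's fragments divided by transcript length in kilobases and by the mapped fragments of the library, so levels of different genes are on 1 scale per length. Estimated depth was 36.5 to 43.5 M fragments (M, mega) in the unoperated libraries and 17.6 to 23.7 M in the ovariectomized ones. The labels do not tie the 2 libraries of a group to separate mice or cultures, and p-values then cover only the spread between libraries, which may be technical. In each ovariectomized group both libraries differed by about as much as sampling noise and were counted as 1 sample, with a spread assumed to be that of the unoperated groups. Surgery and estimated depth changed together, so ovariectomy and any batch that went with it cannot be told apart in comparisons with unoperated arms. Esr1, the targeted gene, had mean vehicle levels of 1.30 FPKM in WT, 2.52 in KO, 1.00 in ERKO OVX and 0.315 in Ex3a OVX, and a level summed over the gene cannot show its allele.

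Ms4a proteins cross the membrane several times, and many sit beside receptors and adjust their signalling. The best known are Ms4a1 (CD20), the B cell antigen, and Ms4a2, the β chain of the high-affinity IgE receptor. Ms4a7 and the Ms4a6 genes are known from monocytes and macrophages, and Ms4a4b from T cells. In mice and humans the family lies in 1 cluster in which neighbouring genes arose by duplication.

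All 21 mouse Ms4a genes of the RefSeq table (GRCm38.p6, the sequence of the submitters' mm10) lay on chromosome 19 between 10962289 and 11640851. The listed genes are protein-coding neighbours in the order Ms4a7 (11321039 to 11336146), Ms4a4a (11375488 to 11392915), Ms4a4c (11404717 to 11427246), Ms4a4b (11443558 to 11463549), Ms4a6c (11469353 to 11487182), Ms4a6b (11518559 to 11530403) and Ms4a6d (11586606 to 11604804). The sequences of 2 neighbouring pairs are shown because these pairs are near copies of each other that nevertheless reached different levels. Each run is the 250 bases before an annotated start on the plus strand of GRCm38.p6 in RefSeq, at chr19:11407411-11407660 for Ms4a4c, chr19:11443308-11443557 for Ms4a4b, chr19:11469118-11469367 for Ms4a6c and chr19:11518309-11518558 for Ms4a6b, with GAGGAA, the core letters bound by the myeloid factor PU.1, in capitals.
Ms4a4c: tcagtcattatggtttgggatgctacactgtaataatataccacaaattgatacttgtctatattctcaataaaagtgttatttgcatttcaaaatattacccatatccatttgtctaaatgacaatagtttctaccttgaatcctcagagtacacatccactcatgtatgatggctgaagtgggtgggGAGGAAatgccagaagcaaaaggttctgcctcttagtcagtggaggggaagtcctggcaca
Ms4a4b: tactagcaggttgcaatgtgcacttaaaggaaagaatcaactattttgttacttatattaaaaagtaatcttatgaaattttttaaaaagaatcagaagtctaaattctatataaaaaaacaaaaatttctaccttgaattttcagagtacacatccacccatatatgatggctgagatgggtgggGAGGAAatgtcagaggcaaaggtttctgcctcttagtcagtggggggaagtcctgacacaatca
Ms4a6c: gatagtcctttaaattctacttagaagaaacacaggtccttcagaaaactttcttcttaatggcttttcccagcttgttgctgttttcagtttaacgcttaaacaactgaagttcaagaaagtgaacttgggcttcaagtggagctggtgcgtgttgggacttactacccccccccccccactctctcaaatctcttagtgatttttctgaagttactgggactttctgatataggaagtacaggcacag
Ms4a6b: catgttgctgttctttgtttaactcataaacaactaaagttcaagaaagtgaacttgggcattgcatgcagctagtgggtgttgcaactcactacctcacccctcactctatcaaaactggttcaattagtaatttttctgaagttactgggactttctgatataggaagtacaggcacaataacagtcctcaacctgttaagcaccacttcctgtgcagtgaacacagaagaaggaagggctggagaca

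Over whole promoter windows, from 250 bases before a start to 50 after it, Ms4a4b and Ms4a4c shared 81.85% of 281 aligned bases and Ms4a6b and Ms4a6c shared 85.33% of 225. The other pairs among the listed genes with a window shared 54.09 to 63.14%, and Ms4a6d had none in the table. Letters GAGGAA, searched on both strands, occurred in 3 of the 7 windows (Ms4a4c, Ms4a4b and 1 of 2 windows of Ms4a7), against 28.276% of all 32851 windows. The interferon-response letters, GAAA repeated after 2 bases, were in 0 of the 7 and in 3.443% of all windows, and the estrogen response letters AGGTCA were in 0 of the 7 and in 16.255% of all. A match of letters is a description, and its absence from a window says nothing about binding elsewhere. Coding sequences were as close, with 91.74% identity for Ms4a4b and Ms4a4c, 85.36% for Ms4a6b and Ms4a6c, and 81.23% for Ms4a6b and Ms4a6d. Of the 50-base windows in the transcripts, 10.545% of those of Ms4a6c, 8.185% of Ms4a4c, 3.574% of Ms4a6b, 2.542% of Ms4a6d, 2.403% of Ms4a4b and 0.306% of Ms4a7 were also in another gene. Not all of these were shared within a near-copy pair. With Ms4a6b were 117 of the 211 shared windows of Ms4a6c, and with Ms4a4b were 135 of the 143 of Ms4a4c. With Ms4a4c were 135 of the 212 of Ms4a4b. Fragments from stretches shared within a pair could be given to either copy, so the split within these pairs is uncertain.

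The 6 genes shared 1 order of arms. Each was lowest in the unoperated arms, higher in ERKO OVX and highest in Ex3a OVX, whichever treatment was compared, and no library of 1 of these 3 levels overlapped another.

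Ms4a6d was the most abundant. The vehicle libraries of WT held 88.3 and 88.6 FPKM, those of KO 50.5 and 50.9, those of ERKO OVX 289.6 and 286.5 and those of Ex3a OVX 494.1 and 505.4. The agonist libraries of WT held 103.2 and 103.3 FPKM, those of KO 66.6 and 67.9, those of ERKO OVX 273.6 and 278.9 and those of Ex3a OVX 710.1 and 710.9. All 8 groups were separate, with KO vehicle lowest and Ex3a OVX agonists highest.

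Ms4a7, a gene used to mark macrophages at the borders of the brain, was next with Ms4a6c. Vehicle libraries of WT held 17.9 and 17.4 FPKM of Ms4a7, those of KO 11.9 and 10.9, those of ERKO OVX 70.3 and 69.2 and those of Ex3a OVX 319.9 and 313.0. Agonist libraries of WT held 25.6 and 26.8 FPKM, those of KO 13.8 and 14.8, those of ERKO OVX 73.8 and 76.4 and those of Ex3a OVX 377.0 and 373.3. All 8 groups were again separate.

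Ms4a6c was at 12.96 and 12.1 FPKM in the vehicle libraries of WT, those of KO held 10.4 and 11.4, those of ERKO OVX 71.3 and 70.7 and those of Ex3a OVX 307.6 and 311.0. With agonists WT libraries held 13.6 and 16.5 FPKM, those of KO 14.0 and 13.5, those of ERKO OVX 59.6 and 65.5 and those of Ex3a OVX 379.8 and 371.5. The agonist libraries of WT and KO overlapped, and the other neighbours in the order of levels did not.

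Ms4a6b, the near copy of Ms4a6c, was lower than it in every group. The vehicle libraries of WT held 9.27 and 8.74 FPKM, those of KO 4.93 and 5.14, those of ERKO OVX 28.8 and 28.1 and those of Ex3a OVX 178.6 and 179.4. Its agonist levels were 7.71 and 7.51 FPKM for WT libraries, 4.14 and 4.46 for KO, 22.9 and 20.0 for ERKO OVX, and 174.0 and 169.5 for Ex3a OVX. The agonist groups were the lower ones in all 4 arms, with no overlap.

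Ms4a4c had the widest range. Its vehicle levels were 0.939 and 0.901 FPKM for WT libraries, 0.463 and 0.565 for KO, 9.43 and 8.98 for ERKO OVX, and 140.7 and 136.2 for Ex3a OVX. Its agonist levels were 1.31 and 1.17 FPKM for WT libraries, 0.757 and 0.743 for KO, 6.09 and 6.41 for ERKO OVX, and 121.6 and 124.8 for Ex3a OVX. It reached 1 FPKM in 2 of the 8 unoperated libraries and in all 8 ovariectomized ones.

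Ms4a4b, the near copy of Ms4a4c, stayed low everywhere. Its vehicle levels were 0.0583 and 0.115 FPKM for WT libraries, 0.120 and 0.121 for KO, 0.986 and 0.888 for ERKO OVX, and 3.70 and 5.44 for Ex3a OVX. Its agonist levels were 0.104 and 0.0582 FPKM for WT libraries, 0.122 and 0.140 for KO, 1.19 and 0.655 for ERKO OVX, and 3.20 and 3.71 for Ex3a OVX. It reached 1 FPKM in 0 of the 8 unoperated libraries, in 1 of the 4 of ERKO OVX and in all 4 of Ex3a OVX. It passed the filter on low values (1 FPKM in 2 libraries) only through Ex3a OVX, so it could be tested only because it was higher there. Vehicle and agonist libraries overlapped in WT, ERKO OVX and Ex3a OVX.

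**Figure D1:**
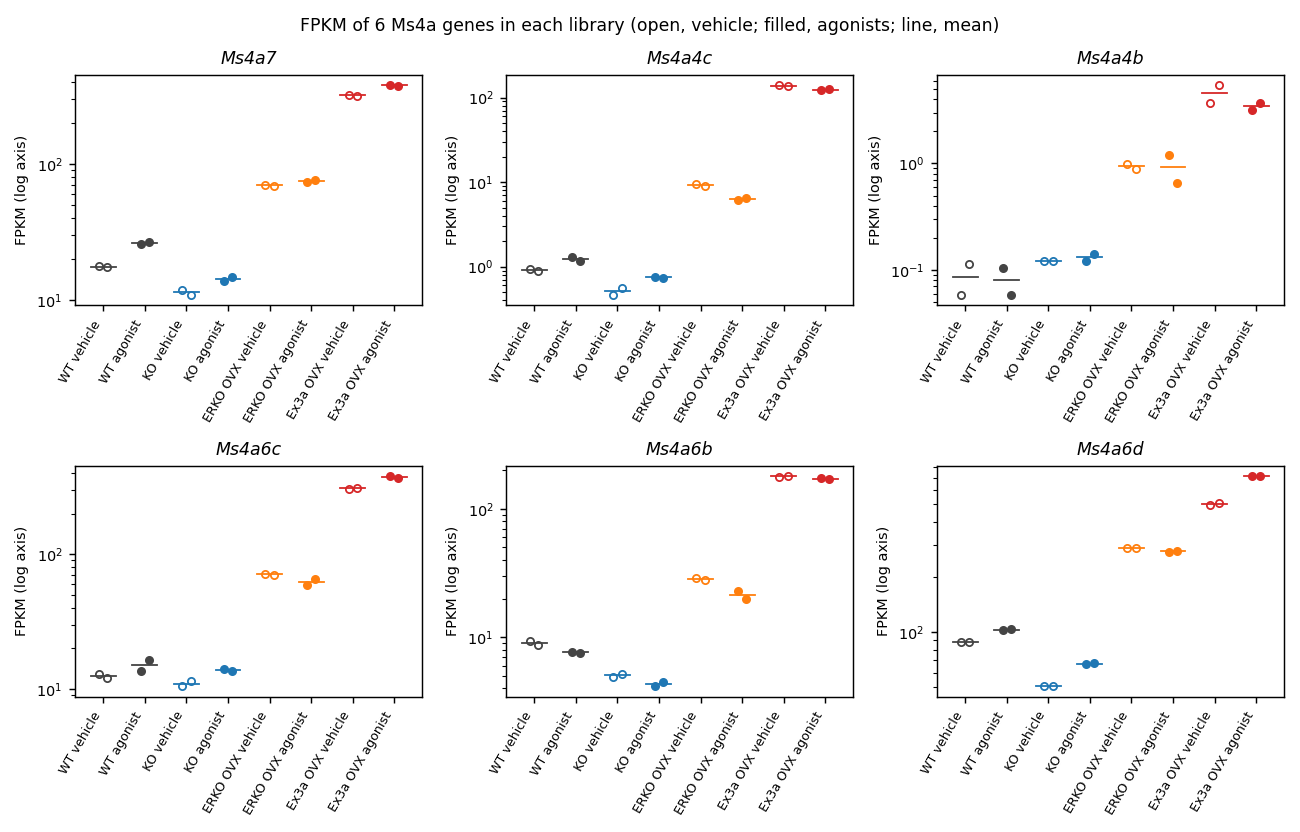
FPKM of 6 Ms4a genes (log axes) in the 2 libraries of each of 8 groups, open circles for vehicle, filled circles for agonists and lines for the mean. In each panel the Ex3a OVX libraries are on top, from 3.20 to 5.44 FPKM for Ms4a4b up to 494.1 to 710.9 for Ms4a6d.

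Between the ovariectomized arms, which share surgery and pellet, all 5 genes that did not depend on Ex3a OVX to be tested were higher in Ex3a OVX, against ERKO OVX, with either treatment. The sixth, Ms4a4b, is given by its values and not counted. Of all genes tested 29.2% were called higher and 26.0% lower with vehicle, and 32.1% and 30.6% with agonists. Log2 fold changes are of FPKM + 1, which understates the change of low genes, and the ± values are standard errors from limma. With vehicle Ms4a4c differed by 3.77 ± 0.07 (limma adjusted p = 3.98e-10), a 15.0-fold ratio of mean FPKM and the 6th largest increase of 11344 genes. Ms4a6b differed by 2.61 ± 0.06 (limma adjusted p = 8.84e-10), a ratio of 6.29. Ms4a7 and Ms4a6c differed by 2.17 ± 0.06 and 2.11 ± 0.11, ratios of 4.54 and 4.36. Ms4a4b differed by 1.53 ± 0.08, and Ms4a6d, the most abundant, by only 0.79 ± 0.03, a ratio of 1.74. With agonists the differences were 4.10 ± 0.07 for Ms4a4c, 2.95 ± 0.06 for Ms4a6b, 2.57 ± 0.11 for Ms4a6c, 2.31 ± 0.06 for Ms4a7, 1.36 ± 0.03 for Ms4a6d and 1.21 ± 0.08 for Ms4a4b. The 2 near-copy pairs thus differed in size of change, Ms4a4c from Ms4a4b by the ratios 15.0 and 4.88 with vehicle and Ms4a6b from Ms4a6c by 6.29 and 4.36, differences between genes that were not tested. Leaving out each library in turn kept the 5 calls in both treatments.

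Between the unoperated arms 4 of the 6 genes were lower in KO than in WT, the opposite side, with either treatment. Of all genes tested 28.7% were called lower and 31.5% higher with vehicle, and 27.6% and 27.2% with agonists, so 4 of 6 is above these shares but rests on few genes. Ms4a6d had 88.4 ± 0.220 FPKM in WT and 50.7 ± 0.229 in KO (SD, n = 2) with vehicle, a log2 fold change of -0.79 ± 0.02 (limma adjusted p = 2.04e-09). Ms4a6b fell by 0.73 ± 0.04 on the log2 scale, from 9.01 ± 0.375 to 5.03 ± 0.148 FPKM (SD, n = 2; limma adjusted p = 3.13e-07). Ms4a7 fell by 0.59 ± 0.04 with vehicle and by 0.83 ± 0.04 with agonists. Ms4a4c fell by 0.34 ± 0.05 and 0.36 ± 0.05, at levels of about 1 FPKM or less. Ms4a6c had -0.19 ± 0.08 with vehicle (limma adjusted p = 0.0634) and -0.11 ± 0.08 with agonists (limma adjusted p = 0.248), neither past the threshold of 0.05. Without WT agonist library 1 both of these passed, at -0.19 and -0.24 (limma adjusted p = 0.00661 and 0.00678), and without WT agonist library 2 the vehicle value did (limma adjusted p = 0.00664), while the agonist value turned to 0.02 (limma adjusted p = 0.822). No direction can thus be read for Ms4a6c with agonists. Ms4a4b differed by 0.05 ± 0.06 and 0.07 ± 0.06 and was not called (limma adjusted p = 0.523 and 0.362). It was at 0.0866 FPKM in WT and 0.121 in KO with vehicle, so its place among the 6 adds little to the count.

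**Figure D2:**
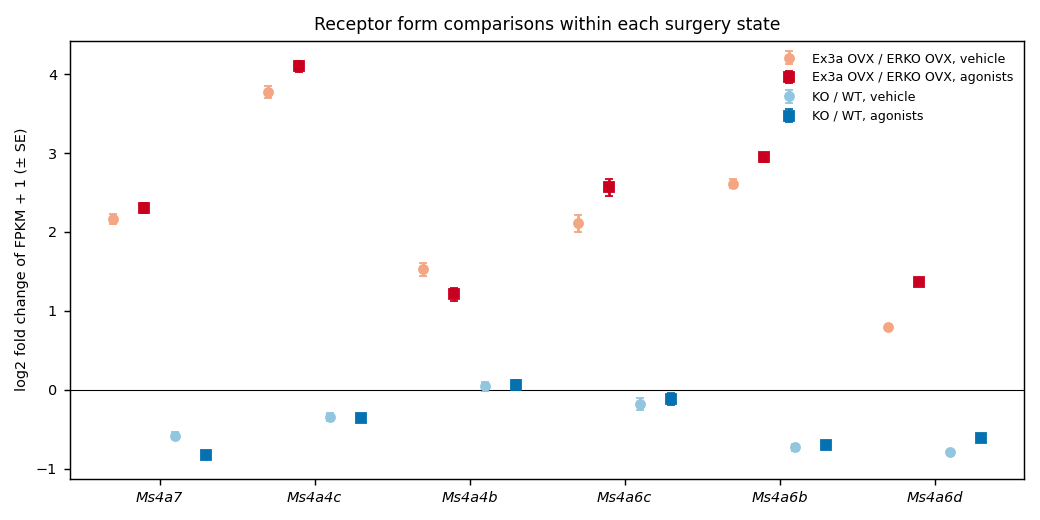
Log2 fold change of FPKM + 1 (points, with standard errors of the fit as bars) of 6 Ms4a genes for Ex3a OVX against ERKO OVX and KO against WT, circles for vehicle and squares for agonists. All points of the first comparison are above 0, from 0.79 for Ms4a6d to 4.10 for Ms4a4c, and those of the second lie between -0.83 and 0.07.

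Within ERα short, the genes were higher in ovariectomized ERKO OVX than in unoperated KO (5 of 5 beside Ms4a4b), where 40.9% of genes were called higher with vehicle and 40.1% with agonists. With vehicle the changes were 2.75 ± 0.06 for Ms4a4c, 2.60 ± 0.09 for Ms4a6c, 2.51 ± 0.06 for Ms4a7, 2.48 ± 0.03 for Ms4a6d and 2.29 ± 0.05 for Ms4a6b, and 0.79 ± 0.07 for Ms4a4b, at 0.937 against 0.121 FPKM. The 1 FPKM added holds down the values of the low genes. As ratios of mean FPKM, Ms4a4c had 17.9 and Ms4a4b 7.76, above the 5.66 to 6.52 of the other 4, and with other added amounts Ms4a4c ran from 1.37 to 3.93 on the log2 scale. With agonists they were 2.05, 2.11, 2.31, 2.02, 2.08 and 0.77 in the same order. Ms4a6d, which had the smallest ratio between Ex3a OVX and ERKO OVX, had ratios of 5.68 and 4.11 here, against 6.10 and 5.25 for Ms4a7. Between Ex3a OVX and WT, which differ in both receptor and surgery, the vehicle values were 6.18 ± 0.06 for Ms4a4c, the second largest increase of 11344, 4.52 ± 0.09 for Ms4a6c, 4.17 ± 0.05 for Ms4a6b, 4.09 ± 0.06 for Ms4a7, 2.49 ± 0.03 for Ms4a6d and 2.36 ± 0.07 for Ms4a4b. All 5 beside Ms4a4b were called higher with either treatment, as were 41.6% of genes with vehicle and 42.1% with agonists. With each library divided by its FPKM sum, the median of all genes was -0.36 and -0.272 in ERKO OVX against KO (vehicle and agonists, from 0.009 and 0.013), -0.358 and -0.347 in Ex3a OVX against WT (from 0.012 and 0.002) and -0.147 in Ex3a OVX against ERKO OVX with agonists (from 0.005). No called direction of the 6 genes changed under that scaling.

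The agonist changes ran from -0.49 to 0.55 on the log2 scale and were not all in 1 direction. Each gene changed less with agonists than between Ex3a OVX and ERKO OVX, but Ms4a7 in WT and Ms4a6c in WT and KO changed by about as much as they differed between KO and WT with vehicle (-0.59 and -0.19), comparisons of size that were not tested. In WT, 4 of 6 rose and 1 fell, where 30.8% and 27.0% of the table did. Ms4a7 rose by 0.55 ± 0.05 on the log2 scale, from 17.6 ± 0.316 to 26.2 ± 0.874 FPKM (SD, n = 2; limma adjusted p = 4.24e-06). Ms4a6c, Ms4a4c and Ms4a6d rose by 0.24 ± 0.08, 0.22 ± 0.05 and 0.22 ± 0.02, and Ms4a6b fell by 0.22 ± 0.04. The Ms4a6c call was lost without WT vehicle library 2 (0.19, limma adjusted p = 0.121) and without WT agonist library 2 (0.11, limma adjusted p = 0.136), with scaling to the library sum (0.16, limma adjusted p = 0.124) and with no filter on low values (limma adjusted p = 0.0872).

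In KO the same directions were called, 4 higher and 1 lower (25.9% and 25.3% of the table). Ms4a6d rose by 0.40 ± 0.02, from 50.7 ± 0.229 to 67.2 ± 0.922 FPKM (SD, n = 2; limma adjusted p = 2.16e-07). Ms4a6c, Ms4a7 and Ms4a4c rose by 0.31 ± 0.08, 0.30 ± 0.05 and 0.21 ± 0.05, and Ms4a6b fell by 0.19 ± 0.04. Without KO vehicle library 1 the calls of Ms4a6c and Ms4a4c were lost (limma adjusted p = 0.0551 and 0.0547), as was that of Ms4a6c without KO agonist library 1 (limma adjusted p = 0.062) and that of Ms4a4c with 5 FPKM added (0.06, limma adjusted p = 0.0691). Ms4a4b was not called in WT or KO.

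In ERKO OVX no gene was called higher and 2 were called lower (18.3% and 19.2% of the table). Ms4a4c fell by 0.49 ± 0.07 and Ms4a6b by 0.39 ± 0.06 (limma adjusted p = 8.00e-04 and 8.38e-04). Ms4a6d, at 288.1 and 276.3 FPKM, had -0.06 ± 0.03 and was not called. Ms4a6c, with -0.18 ± 0.11, was not called. Nor was Ms4a7, with 0.10 ± 0.06, though its agonist libraries lay above its vehicle libraries. With 16 separate libraries Ms4a6d, Ms4a6c and Ms4a7 passed the threshold. In Ex3a OVX 2 were called higher and none lower (19.1% and 18.2% of the table). Ms4a4b, which was tested only through Ex3a OVX, is not counted. Ms4a6d rose by 0.51 ± 0.03 (limma adjusted p = 3.46e-06) and Ms4a7 by 0.25 ± 0.06, a call lost with scaling to the library sum (0.17, limma adjusted p = 0.0751) and with no filter (limma adjusted p = 0.0577). Ms4a4b fell by 0.32 ± 0.08, a call that rested on vehicle library 2, since without it the value was -0.08 (limma adjusted p = 0.474), and that held in 21 of 26 alternatives. Ms4a6c, with 0.28 ± 0.11 (limma adjusted p = 0.0736), was not called, and was called without either WT agonist library (limma adjusted p = 0.00949 and 0.0095). Ms4a4c, with -0.17 ± 0.07 (limma adjusted p = 0.101), was not called, though its agonist libraries lay below its vehicle libraries. That outcome held in 22 of 27 alternatives, and the others, such as 5 FPKM added (limma adjusted p = 0.00573), called it lower.

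**Figure D3:**
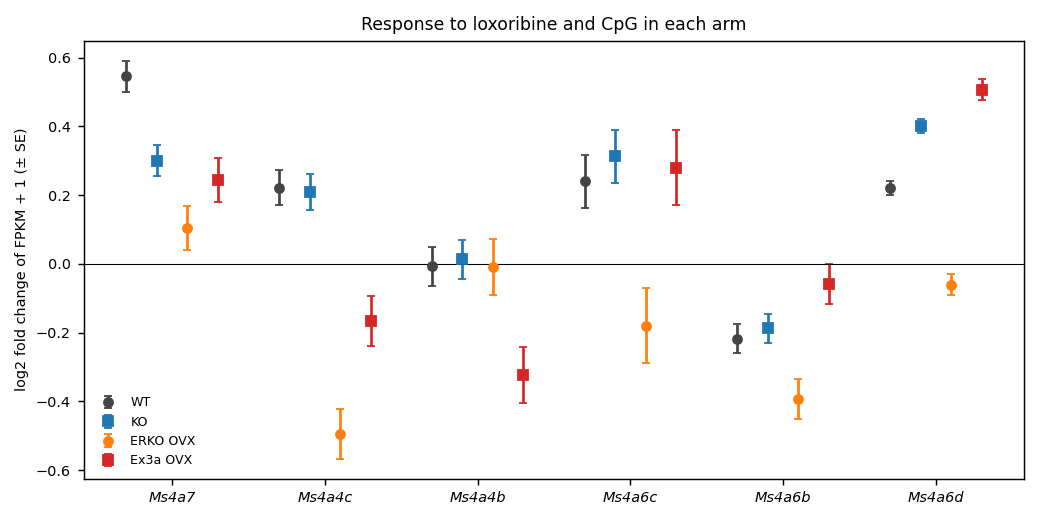
Log2 fold change of FPKM + 1 with agonists against vehicle (points, with standard errors of the fit as bars) of 6 Ms4a genes in 4 arms. Ms4a6b lies below 0 in all 4 arms, from -0.39 to -0.06, and Ms4a6d runs from -0.06 in ERKO OVX to 0.51 in Ex3a OVX.

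The differences of these responses were tested as interaction terms. Ms4a6d responded more in KO than in WT by 0.18 ± 0.03 (limma adjusted p = 0.00736) and Ms4a7 less by 0.25 ± 0.06 (limma adjusted p = 0.04996, at the threshold), where 2.31% of genes were called with a higher and 4.68% with a lower response. In Ex3a OVX against ERKO OVX 3 genes had a higher response and none a lower one (16.6% and 14.7% of the table), Ms4a6d by 0.57 ± 0.04 (limma adjusted p = 6.12e-05), Ms4a6b by 0.33 ± 0.08 and Ms4a4c by 0.33 ± 0.10. Those of Ms4a6c (0.46 ± 0.15, limma adjusted p = 0.0505), Ms4a4b (-0.31 ± 0.12, limma adjusted p = 0.0632) and Ms4a7 (0.14 ± 0.09, limma adjusted p = 0.265) were not called. In ERKO OVX against KO 3 had a lower response and none a higher one (12.4% and 11.4% of the table), Ms4a4c by 0.70 ± 0.09, Ms4a6c by 0.49 ± 0.13 and Ms4a6d by 0.46 ± 0.04. The 2 last comparisons share the ERKO OVX libraries.

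Outside the 7 listed genes, 12 Ms4a genes had a row. Of these 5 were at 0 in every library, 5 were above 0 but under the filter, and 2 were tested. Ms4a1, the B cell antigen, did not exceed 0.528 FPKM in any library. The 2 tested genes lie side by side beyond Ms4a6d and had another order of arms. Ms4a3, a gene of granulocyte and monocyte progenitors, had 5.75 and 6.14 FPKM with vehicle in ERKO OVX, 3.27 and 3.65 in Ex3a OVX, and no more than 0.0297 in an unoperated library. Ms4a2 had 1.27 and 1.29 FPKM in ERKO OVX, 0.325 and 0.457 in Ex3a OVX, and no more than 0.0193 in an unoperated library. Ms4a3 was lower in Ex3a OVX, with a log2 fold change of -0.64 ± 0.08 (limma adjusted p = 6.37e-05), the opposite side from the listed genes. Ms4a2 reached 1 FPKM in the ERKO OVX libraries alone and was tested only because it was high there, so its levels are given with no test. Within the run of listed genes, Ms4a4d did not exceed 0.321 FPKM and the unlisted Gm8369 did not exceed 0.503.

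**Figure D4:**
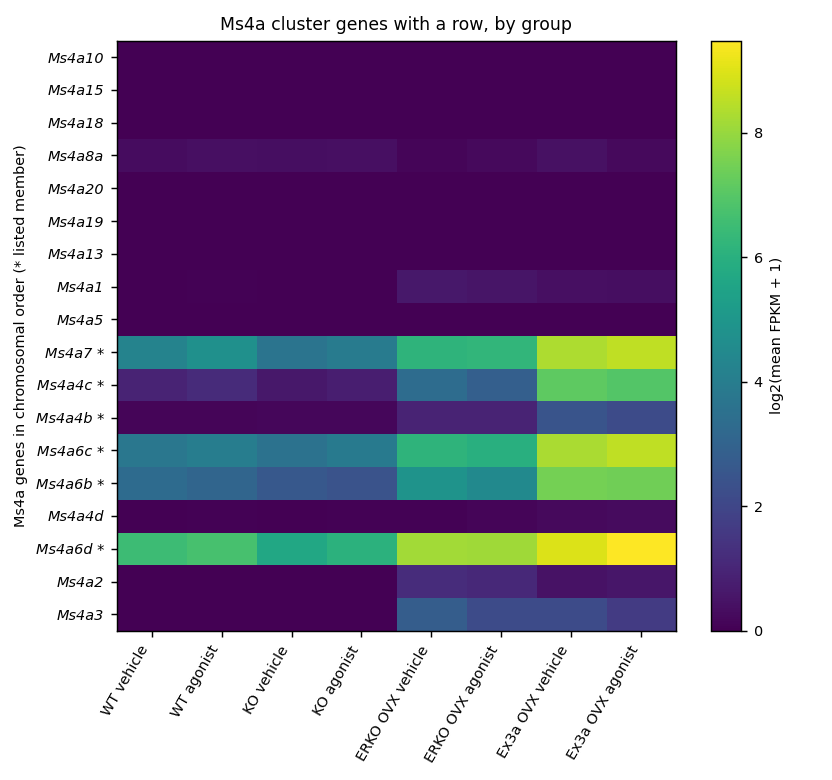
Colour gives log2 of mean FPKM + 1 for the 18 Ms4a genes with a row, in chromosomal order from top to bottom, in 8 groups; asterisks mark listed genes. Ms4a7, Ms4a6c, Ms4a6b and Ms4a6d are at 4.30 FPKM or more in every group, Ms4a4c is at 1.24 or less in the unoperated groups and at 6.245 or more in the ovariectomized ones, and the 9 genes above Ms4a7 stay at 0.528 FPKM or less.

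Tmem176a and Tmem176b, relatives of the family that lie outside the cluster, differed between receptor forms in both surgery states. Tmem176b had 159.3 FPKM with vehicle in Ex3a OVX and 57.6 in ERKO OVX, a log2 fold change of 1.45 ± 0.04, and Tmem176a had 82.2 and 49.0, a change of 0.74 ± 0.04. In KO they were higher than in WT by 0.95 ± 0.03 and 1.08 ± 0.03, where 4 of the 6 Ms4a genes were lower. ERKO OVX differed from KO by -1.86 ± 0.04 and -1.81 ± 0.03, where the Ms4a genes were higher.

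Of 6 genes for proteins reported beside Ms4a proteins in the membrane, 4 were higher and 2 lower in Ex3a OVX against ERKO OVX with vehicle. Their median log2 fold change was 0.30, against 0.02 over all genes tested. Of all genes tested 29.2% were called higher and 26.0% lower in this comparison, the shares for each list below. Trem2, a lipid receptor of macrophages, had 308.5 against 70.5 FPKM (2.11 ± 0.05), and its signalling chain Tyrobp had 1963 against 1136 (0.79 ± 0.04). Fcer1a, the IgE-binding chain that joins the product of Ms4a2, had 1.22 against 7.07 FPKM (-1.86 ± 0.08), and Clec7a, the β-glucan receptor Dectin-1, had 295.9 against 471.2 (-0.67 ± 0.06). In KO against WT with vehicle 28.7% of all genes tested were called lower and 31.5% higher, again the shares for each list below. Of the 6 genes 4 were lower there and none higher, Trem2 by -0.86 ± 0.03 and Tyrobp by -0.39 ± 0.03. Trem2 was thus on the side of Ms4a7 in both comparisons of receptor form. With agonists it went the other way from Ms4a7, at -0.63 ± 0.03 in WT and -1.40 ± 0.05 in Ex3a OVX.

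Interferon-stimulated genes moved with the Ms4a genes between the ovariectomized arms. All 30 of the list were higher in Ex3a OVX against ERKO OVX with vehicle (median 0.80). With agonists 29 of 30 were higher (median 1.00), against 32.1% of all genes. Cxcl10, a chemokine induced by interferon, had 203.2 against 38.9 FPKM, and Ifit2 had 190.0 against 49.3. Between the unoperated arms the list went the other way from the Ms4a genes, with 19 of 30 higher and 7 lower in KO than in WT with vehicle (median 0.20).

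Genes that IL-4 induces split in both comparisons with vehicle. With vehicle 6 of 16 tested were higher and 8 lower in Ex3a OVX against ERKO OVX, and 4 were higher and 9 lower in KO than in WT. Mrc1, the mannose receptor, had 40.6 against 10.7 FPKM in Ex3a OVX against ERKO OVX, while the chemokine Ccl17 had 348.7 against 1719. Arg1, which breaks down arginine, had 12.8 FPKM in KO and 262.4 in WT. With agonists 1 of 15 was higher and 12 lower in KO than in WT (median -0.604), against 27.2% and 27.6% of all genes. In Ex3a OVX against ERKO OVX with agonists 5 of 16 were higher and 10 lower, against 32.1% and 30.6% of all genes.

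Markers of other cell types moved with these comparisons. In bulk RNA more cells of a type and more RNA per cell cannot be told apart. Of 15 tested macrophage markers 13 were higher and 1 lower in Ex3a OVX against ERKO OVX with vehicle, and 1 was higher and 13 lower in KO than in WT. The 15 include Folr2, at 2.87 FPKM in Ex3a OVX with vehicle and means of no more than 0.3315 outside Ex3a OVX. It was tested only because it was higher in that arm. The summed FPKM of the list was 2092 to 2134 in WT, 713.4 to 727.5 in KO, 2104 to 2112 in ERKO OVX and 4026 to 4029 in Ex3a OVX, all with vehicle. The list is thus at about the same sum in WT and ERKO OVX, where Ms4a7 was at 17.6 and 69.8 FPKM. Its genes moved in both directions between these arms, Cd68 from 421.7 to 838.2 FPKM and Pf4 from 624.2 to 64.7. With vehicle Cd68, Csf1r, Fcgr1, Maf and Adgre1 had the order of arms of Ms4a7, lowest in KO, then WT, ERKO OVX and Ex3a OVX. Fcgr1 was at 7.49, 18.8, 26.6 and 163.9 FPKM in that order, and Adgre1 at 39.57, 64.4, 476.0 and 610.7. The rest of the list, Pf4 among them, had another order. C1qa, a complement chain made by macrophages, was at 112.7 FPKM in WT and 116.1 in Ex3a OVX with vehicle, where Ms4a7 was at 17.6 and 316.4. In KO and ERKO OVX C1qa was at 3.27 and 2.43, where Ms4a7 was at 11.4 and 69.8. Vsig4, Cd163 and Timd4, markers of resident macrophages, did not exceed 0.0594, 0.135 and 0.419 FPKM. The part of the macrophage markers in the Ms4a differences was not tested.

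Monocyte markers did not share 1 order of arms. Their sum with vehicle was 6316 to 6370 FPKM in WT, 5190 to 5245 in KO, 9151 to 9178 in ERKO OVX and 17190 to 17250 in Ex3a OVX. Most of it was Lyz2, the lysozyme of myeloid cells, at 6177, 5003, 6314 and 13260 FPKM in these groups. Ly6c2, the antigen of inflammatory monocytes, had 144.8, 188.3, 2738 and 3668 FPKM in these groups. Of 9 tested monocyte markers 6 were higher and 3 lower in Ex3a OVX against ERKO OVX, among them the chemokine receptor Ccr2 at 10.4 against 2.30 FPKM. In KO against WT 4 were higher (Ly6c2, Ccr2, Plac8 and Cx3cr1) and 3 lower, among them Lyz2, where 4 Ms4a genes were lower. With agonists 3 were higher and 3 lower in WT, 4 and 2 in KO, and 1 and 4 in each of ERKO OVX and Ex3a OVX. Their part in the Ms4a differences was not tested.

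Dendritic cell markers were summed at 6375 to 6383 FPKM in WT, 7937 to 8064 in KO, 13070 to 13160 in ERKO OVX and 15730 to 15750 in Ex3a OVX with vehicle. Most of this sum was Cd74, the MHC class II invariant chain, and class II genes. Of 13 tested, 5 were called higher and 7 lower in ERKO OVX against KO with vehicle (median -0.633). Of all 11344 genes 4643 were called higher and 4528 lower there. Zbtb46 was at 22.1 FPKM in KO and 4.24 in ERKO OVX, and Ccr7 at 1769 and 505.4. Cd74 was at 4203 and 7187. Itgax, which encodes CD11c, was at 86.2 FPKM in Ex3a OVX against 153.6 in ERKO OVX, so the defining gene of the labelled cells was detected and lay on the other side from the Ms4a genes. The list itself split there, with 6 of 13 higher and 6 lower. In KO against WT it lay mostly on the other side from the Ms4a genes. With vehicle 11 of 13 were higher and 1 lower (median 0.435), against 31.5% and 28.7% of all genes. With agonists 9 were higher and 2 lower (median 0.345), against 27.2% and 27.6% of all genes. The part of these markers in the Ms4a differences was not tested. Of the 17 genes, 2 were at 0 in both libraries of each vehicle group.

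Markers of lymphocytes and granulocytes set the surgery states apart. T and NK cell markers summed to 5.38 to 7.90 FPKM over the unoperated libraries and 42.8 to 104.8 over the ovariectomized ones, and were highest in Ex3a OVX. Of 10 tested, 8 were higher and 2 lower in Ex3a OVX against ERKO OVX with vehicle. Among the higher was Nkg7, a granule protein of cytotoxic cells, at 6.79 against 1.40 FPKM. Cd3d and Cd3g had 1.90 and 3.51 FPKM in Ex3a OVX with vehicle and means of no more than 0.703 outside Ex3a OVX. They were tested only because they were higher in that arm, so their part in the count was fixed by the filter. Ms4a4b, known from T cells, had 4.57 FPKM in Ex3a OVX against 0.937 in ERKO OVX with vehicle, and the part of such cells in its level was not tested. Mast cell and basophil markers summed to 2.83 to 4.74 FPKM over the unoperated libraries, 92.2 to 124.4 in ERKO OVX and 45.4 to 62.4 in Ex3a OVX. Of 7 tested, 5 were lower and 1 higher in Ex3a OVX against ERKO OVX, the side on which Ms4a2 and Ms4a3 lay, and their part in these was not tested. The granulocyte list summed to 216.4 to 425.6 FPKM over the unoperated libraries and 1011 to 2483 over the ovariectomized ones. Much of the latter was Lcn2, at 1088 FPKM in ERKO OVX and 598.7 in Ex3a OVX with vehicle. In ERKO OVX against KO with vehicle 10 of 14 were higher and 3 lower (4643 and 4528 of all 11344 genes). Mmp8 was at 229.5 FPKM in WT, 85.85 in KO, 65.85 in ERKO OVX and 82.02 in Ex3a OVX with vehicle. B cell markers summed to no more than 8.90 FPKM in any library, and 1 of 10 passed the filter.

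**Figure D5:**
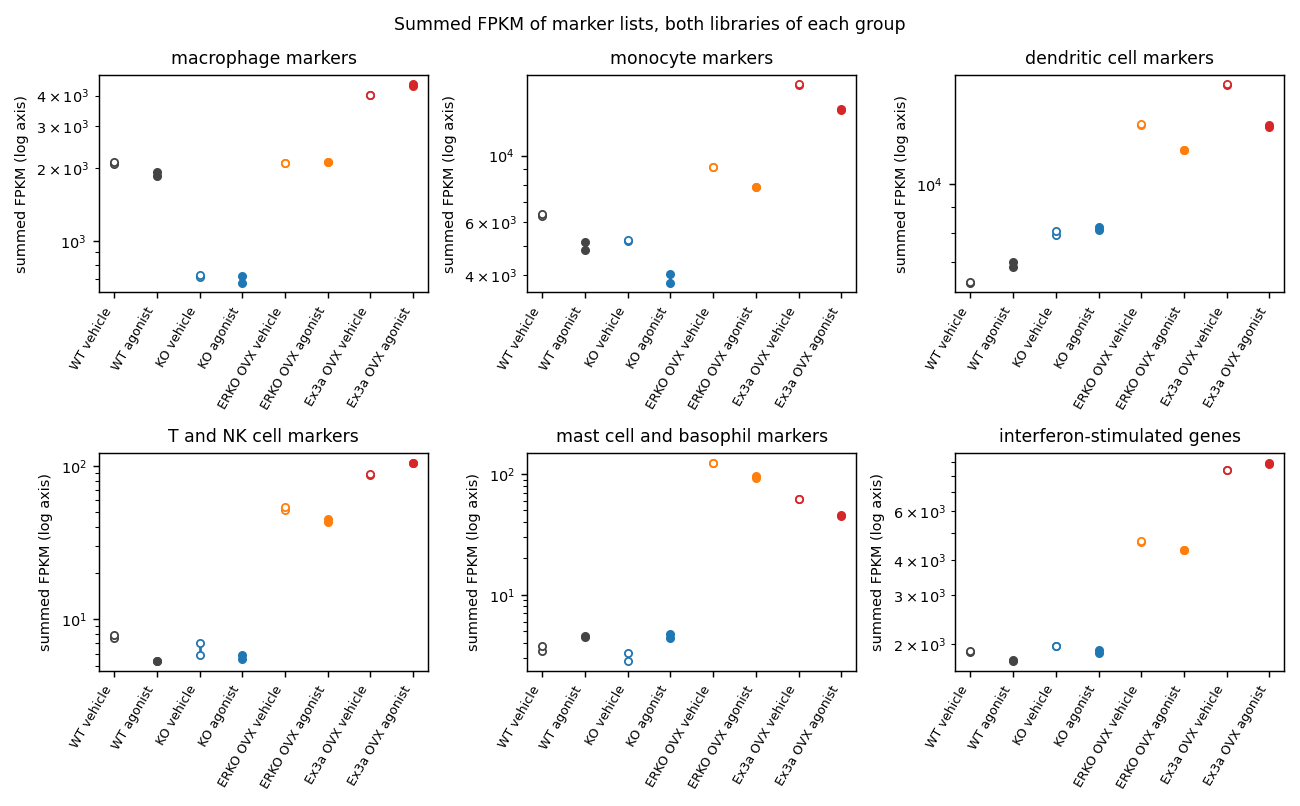
Summed FPKM (log axes) of 6 gene lists in both libraries of 8 groups, open circles for vehicle and filled circles for agonists. Macrophage marker sums lie between 1865 and 2134 in WT and ERKO OVX, and monocyte marker sums, most of them Lyz2, reach 17250 in Ex3a OVX.

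Likeness of pattern was measured as Pearson's r of log2(FPKM + 1) over the 12 samples, against 7844 genes tested with a mean of at least 5 FPKM. The 6 Ms4a genes had r of 0.917 to 0.992 among themselves, lowest between Ms4a6d and Ms4a4b and highest between Ms4a4c and Ms4a4b, a pair that shares sequence. The samples share the step between surgery states, which raises every such r. Outside the family, Ms4a4c was nearest to Gm14446 (0.997), Pydc3 and Gm4841, and Ms4a6b to Pydc4 (0.996), Tsc22d4 and Stard3. Ms4a6c was nearest to Eng (0.998), the TGF-β co-receptor endoglin, with the interferon-induced Iigp1 and Ifit2. Ms4a4b was nearest to Znfx1 (0.995), Trim30d and Apol9a, Ms4a6d to the MHC class I gene H2-D1 (0.998), Ltbr and Hnrnpab, and Ms4a7 to Cept1 (0.995), the lysosomal phosphatase Acp2 and Tifa. Pydc4 had mean levels of 1.82 FPKM in WT, 1.07 in KO, 5.47 in ERKO OVX and 27.5 in Ex3a OVX with vehicle, so it was lower in KO than in WT as Ms4a6b was. Ifit2 had 11.3, 12.1, 49.3 and 190.0 in the same order, where Ms4a6c had 12.5, 10.9, 71.0 and 309.3, so Ifit2 was not lower in KO than in WT as the mean of Ms4a6c was.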

How the data were processed

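RNA was sequenced in 16 libraries, 2 in each of 8 groups taken from the source labels. The deposited table gives FPKM values for 24001 gene rows, made with cutadapt, FastQC, STAR, HTSeq and DESeq2 on mm10 according to the submitters' processing notes, which give no versions. Which program computed FPKM is not stated there. FPKM keeps no fragment counts, and depth is a rough estimate from how low values step (57.6 to 61.7% within 0.1 of a whole number).

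The members and gene lists were chosen with earlier results of these data known. Small RNA rows (1208) were left out, 5 zeros in 4 genes were taken as missing, and genes with 1 FPKM or more in at least 2 libraries were tested. The limma 3.58.1 trend method (R 4.3.3, robust) was applied to log2(FPKM + 1), 1 coefficient for each group, over 12 samples (4 residual degrees of freedom), each ovariectomized pair being averaged because its variance was 1.06 to 1.45 times the sampling variance, against 2.66 to 7.53 in unoperated pairs. Benjamini and Hochberg's adjustment was made within each of 15 comparisons over all genes. The fit was checked on simulated data.

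Named genes are the listed ones, other Ms4a genes, the 3 nearest in pattern, up to 3 per list with the largest called change, and neighbours in the cluster; some of these are not reported here. Adgre1 was matched to its older symbol. Ly6c2, Clec7a, Adgre1, Maf, Zbtb46, Ccr7, Lcn2, Mmp8 and, in second comparisons, some listed genes were named after their values were seen. Promoters, coordinates and motifs came from RefSeq (GRCm38.p6) and transcripts from GENCODE. Alternatives covered the added FPKM, filter, scaling, averaging, spread estimate, replicate block and leaving out each library.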

Additional observations from a re-analysis of the deposited data

Results flagged for a closer look

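The agonist response of 5 Ms4a genes differed between arms by the test of an interaction term, on the log2(FPKM + 1) scale with limma's adjusted p, and each ovariectomized arm counts as 1 sample per treatment. In KO against WT the response of Ms4a6d was higher by 0.18 (0.40 against 0.22, adjusted p = 0.00736) and that of Ms4a7 differed by -0.25 (0.30 against 0.55, adjusted p = 0.04996). The call of Ms4a7 held in 13 of 27 alternatives, and it was lost without either WT vehicle library (-0.26 and -0.23), without either WT agonist library (-0.28 and -0.21), without KO vehicle library 1 (-0.19) and without KO agonist library 1 (-0.20). It was also lost, with the value at -0.25, without vehicle library 1 of ERKO OVX or of Ex3a OVX (adjusted p = 0.05 and 0.0501).

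In Ex3a OVX against ERKO OVX the response was higher by 0.33 for Ms4a4c (-0.17 against -0.49), by 0.33 for Ms4a6b (-0.06 against -0.39) and by 0.57 for Ms4a6d (0.51 against -0.06). The first of these held in 18 of 27 alternatives, and fell short of the threshold without either WT vehicle library (adjusted p = 0.0514), without ERKO OVX vehicle library 1 (0.29, adjusted p = 0.0546) and without ERKO OVX agonist library 1 (0.30, adjusted p = 0.0541). That of Ms4a6b was lost with scaling to the library sum (0.19, adjusted p = 0.12) and with quantile normalization (0.23, adjusted p = 0.0774). The call of Ms4a6d held in all 27 alternatives. Scaling to the library sum took that of Ms4a4c to 0.20 (adjusted p = 0.258).

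In ERKO OVX against KO the response differed by -0.70 for Ms4a4c (-0.49 against 0.21), by -0.49 for Ms4a6c (-0.18 against 0.31) and by -0.46 for Ms4a6d (-0.06 against 0.40). The call of Ms4a6c held in 19 of 26 alternatives, and was lost without KO vehicle library 1 (-0.44, adjusted p = 0.069), without KO agonist library 1 (-0.47, adjusted p = 0.0846) and without KO agonist library 2 (-0.52, adjusted p = 0.0612). Surgery and any batch that went with it cannot be told apart in this comparison.

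Some responses that were not called passed the threshold when 1 library was left out. For Ex3a OVX against ERKO OVX, Ms4a6c (0.46) passed without either WT agonist library (adjusted p = 0.0063), without library 2 of ERKO OVX vehicle (0.47, adjusted p = 0.0473) or agonists (0.53, adjusted p = 0.0301), and without library 2 of Ex3a OVX vehicle (0.47, adjusted p = 0.0462) or agonists (0.48, adjusted p = 0.0447). Ms4a4b (-0.31) passed there without ERKO OVX vehicle library 1 (-0.35, adjusted p = 0.0417) or agonist library 2 (-0.50, adjusted p = 0.0096), and without Ex3a OVX vehicle library 1 (-0.52, adjusted p = 0.0079) or agonist library 2 (-0.40, adjusted p = 0.0258). For ERKO OVX against KO, Ms4a6b (-0.21) passed without KO agonist library 1 (-0.25, adjusted p = 0.0376), ERKO OVX vehicle library 2 (-0.22, adjusted p = 0.0482) or ERKO OVX agonist library 1 (-0.30, adjusted p = 0.0137), and Ms4a7 (-0.20) without KO vehicle library 1 (-0.26, adjusted p = 0.0404).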

How the results depend on the processing

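Of 2380 values of the 6 Ms4a genes under alternatives, 2280 kept their direction and side of the threshold, 47 fell short of it, 53 passed it and 0 called values reversed. All calls of Ex3a OVX against ERKO OVX, Ex3a OVX against WT and ERKO OVX against KO held under every alternative run. Counts that moved by over 1.5 times were the following, and the cause was not tested. For the response of KO minus WT, 793 genes became 404 without a filter and 429 to 795 leaving out each library, and 2 Ms4a genes became 1 with 0.1 FPKM added, no filter, scaling to the library sum, quantile normalization, empirical Bayes without robust and trend, or the replicate block with 12 samples, and 1 to 2 leaving out each library. For Ex3a OVX minus ERKO OVX, 3 Ms4a genes became 5 with 5 FPKM added, with 16 separate libraries or with the ovariectomized libraries alone (added after seeing the data), 1 with either scaling to the library sum or quantile normalization, and 2 to 5 leaving out each library. Genes called there rose from 3550 to 5532 with 16 separate libraries and to 5501 with the replicate block over them. For Ex3a OVX, 3 Ms4a genes, here with Ms4a4b, became 5 with 5 FPKM added and 2 to 4 leaving out each library. For ERKO OVX, 2 became 5 with 16 separate libraries, with the block over them and with the ovariectomized libraries alone. For ERKO OVX minus KO, 3 became 5 with 16 separate libraries and with the block over them, and 2 to 4 leaving out each library. In KO 5 Ms4a genes became 3 to 5 leaving out each library. Replicate numbers did not pair the samples (correlations of -0.0755 to 0.0548 between deviations of same-numbered libraries), so the block was an alternative only. Depth is known only as an estimate, which limits the genes under 1 FPKM, Ms4a4b above all.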

Other observations

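AW112010, a long noncoding RNA gene inside the cluster (chromosome 19, 11047612 to 11050566, GRCm38.p6) and the only gene there outside the family that was tested, had an order of arms unlike that of the Ms4a genes. Its vehicle levels were 461.7 and 477.9 FPKM for WT libraries, 820.9 and 838.1 for KO, 648.2 and 664.3 for ERKO OVX, and 980.5 and 976.0 for Ex3a OVX. KO exceeded WT by 0.82 ± 0.03 on the log2 scale, where 4 Ms4a genes were lower, and ERKO OVX differed from KO by -0.34 ± 0.04, where the Ms4a genes were higher (limma adjusted p = 1.66e-08 and 1.17e-05). The agonists raised it by 0.48 ± 0.03 in WT, 0.19 ± 0.03 in KO and 0.52 ± 0.04 in Ex3a OVX. It had 0.04 ± 0.04 in ERKO OVX (limma adjusted p = 0.534), the arm in which no Ms4a gene was called higher. Ccdc86, the nearest tested gene outside the cluster, ranged from 13.4 to 34.8 FPKM over all libraries. Its mean vehicle levels were 13.54 FPKM in KO, 17.67 in WT, 20.42 in ERKO OVX and 29.82 in Ex3a OVX, the order of arms of Ms4a7 with smaller steps. With agonists they were 14.55, 18.34, 18.6 and 34.62 in the same order, with WT and ERKO OVX close. Of the other genes beside the cluster, Zp1 and Oosp3 were at 0 in every library. Ptgdr2, Oosp2 and Oosp1 did not exceed 0.0480, 0.154 and 0.883 FPKM.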
